A study of Saccharomyces cerevisiae W303 with 8 samples.

Results

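The first 10 min of the NaCl response were measured in the control strain of a budding yeast time course, by setting its array at 10 min against its array at 0 min. All genes of the array were taken, with no selection by their values: 5831 of the 6228 genes on the array could be compared, through 5856 of 6256 probes, each of them well above background in both channels on both arrays. The yeast was Saccharomyces cerevisiae W303, a laboratory strain, grown in YPD, a rich glucose medium, at 30 °C. At 10 min the control strain had been in 0.4 M NaCl for 10 min, and at 0 min it was untreated. The labels give this strain the genotype msn2msn4 with the plasmid pMsn2pMsn2DNES, so by its label it lacks the chromosomal copies of both stress transcription factor genes and carries a plasmid named for Msn2; the labels do not spell out the plasmid's last letters. The strain labelled cdc55, used below only for values side by side, has the same label for both genes and the plasmid and carries in addition a label for the deletion of CDC55, the gene of a regulatory subunit of the phosphatase PP2A, and it too was sampled at 0 and 10 min. The series title asks how that phosphatase acts on the osmostress response through Msn2 and Msn4. On every array the Cy5 channel held the sample's RNA, and the Cy3 channel held RNA from untreated control cells, the same for all samples.

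High salt draws water out of the yeast cell and lets sodium in. The cell answers through the Hog1 pathway, a chain of membrane sensors and kinases that ends in the MAP kinase Hog1, which enters the nucleus and acts on genes for glycerol synthesis, glycerol being the solute that yeast accumulates to restore its volume. Msn2 and Msn4 bind a short element, the STRE, in front of many genes used in several kinds of stress, and during stress yeast cells also lower the mRNAs of the machinery that builds ribosomes.

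Values are log2 ratios of the sample to the untreated reference, averaged over the usable spots of a probe, at most 2. A difference is the ratio at 10 min minus the ratio at 0 min. Each time has 1 array, so no difference has a replicate check and no test was made. A gene is said to rise or fall here where its difference passed 2-fold (1 on the log2 scale) between these arrays. The error that can be given is technical: a single spot's difference had a standard deviation of 0.11 over 5374 probes with both spots usable. It was taken as the standard deviation between the 2 spots of a probe, divided by the square root of 2. Whether a lower ratio reflects fewer mRNA copies in each cell or fewer cells that hold them cannot be told apart in bulk RNA.

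The scanner file attached to the control sample at 10 min holds the values that the deposited value table heads as cdc55 at 0 min, and the reverse, so these files were exchanged back before any value below was taken. A second exchange, on the same basis, concerned the control strain at 30 min and the strain labelled cdc55 at 20 min, so 4 files were moved and the 30 min values below rest on it. With these exchanges, 5646 of 5742 complete rows of that table matched a probe in all columns, against 2 rows with the files as attached. The array at 10 min had 96.65% of its spots well above background in Cy5 and the array at 0 min 95.67%. Non-uniform Cy5 spots numbered 267 at 10 min and 283 at 0 min, more than the 4 to 28 of the other arrays, and they were left out. In the strain labelled cdc55 the CDC55 probe stood at -0.23 at 10 min and -0.54 at 0 min, and in the control strain at 0.14 and 0.11. The values under that label are lower by less than 2-fold, so the probe does not show the loss of the gene. The MSN2 probe was not well above background and gave no value to compare. MSN4 stood at 1.08 at 10 min and -0.00 at 0 min, a rise of 1.08 that goes against the label. The positions of these probes relative to the deletions were not analysed here, and a probe outside the deleted part checks nothing. The list of engineered genes and PP2A subunits that holds them had 1 rise, MSN4, and 0 falls among 9 genes. Its share of rises was 11.1%, beside 6.83% of all probes, and its median 0.22.

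Within 10 min, 400 probes rose (6.83% of those compared) and 342 fell (5.84%), while 5114 stayed within 2-fold. The rises reached further than the falls. Past 4-fold there were 97 rises and 57 falls, past 8-fold 38 rises and 5 falls, and past 32-fold 9 rises and 0 falls. The differences spanned -4.02 to 6.99 around a median of -0.00, with a standard deviation of 0.77 over probes. Taken alone against the reference, the array at 10 min had a standard deviation of 0.78 and 754 probes past 2-fold. The array at 0 min, which compares untreated RNA with the untreated reference, had a standard deviation of 0.15 and 2 probes past 2-fold. Of the rising probes with both spots usable, 334 of 371 passed 2-fold in each spot, and of the falling ones 275 of 308. Close to the threshold, HAL1 at 1.0027 and PTK2 at 1.0004 counted as rises and MNT4 at 0.9964 did not, and NEW1 at -1.0022 counted as a fall while RPC82 at -0.9997 did not. With the signals background-corrected by normexp and normalised by loess in place of the scanner's ratios, GIS1, CTA1, MFA1, ROX1, HAL1 and PTK2 among the rises named here, and CDC20, BUD4, HXT8, CTF19 and CMR3 among the falls, no longer passed 2-fold.

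**Figure D1:**
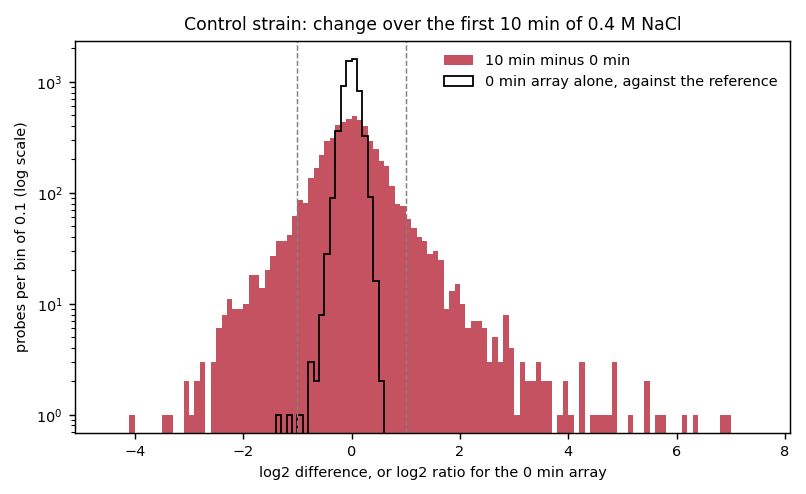
Histogram of the log2 difference, 10 min minus 0 min, over the 5856 compared probes (filled), and of the log2 ratio of the 0 min array alone against the reference (line), in bins of 0.1 with the number of probes on a log axis. The filled histogram reaches 6.99 on the right and -4.02 on the left, past the 2-fold limits (dashed), while 2 probes of the 0 min array lie past them.

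The largest rise was that of CTT1, the cytosolic catalase, which stood at 7.06 at 10 min and 0.07 at 0 min, a difference of 6.99. STL1, the glycerol symporter of the plasma membrane, reached 6.49 at 10 min against 0.12 at 0 min, and HSP12, a small membrane-associated stress protein, reached 6.39 against 0.25. At 0 min the ratios of all 15 of the largest rises lay no further than 0.25 from 0. PHM7, a membrane protein, rose by 5.71, FMP48, a predicted kinase, by 5.61, and ALD3, an aldehyde dehydrogenase, by 5.48. The enzyme pair that makes glycerol followed, with 5.41 for GPP2, glycerol-3-phosphate phosphatase, and 5.11 for GPD1, glycerol-3-phosphate dehydrogenase. Next came GRE2, a methylglyoxal reductase, at 4.89, HXT5, a hexose transporter, at 4.88, and PUT4, the proline permease, at 4.73. PRR2, a protein kinase, rose by 4.64, NQM1, the minor transaldolase, by 4.58, MPC3, a subunit of the mitochondrial pyruvate carrier, by 4.41, and PNS1, a plasma membrane protein, by 4.26. RTC3 had a difference of 6.86, second to CTT1, but 1 of its spots was not usable on both arrays and so it is not among these 15.

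Among the falls, PHM6, a gene of the phosphate starvation response, was lowest at -3.80 at 10 min against 0.22 at 0 min, a difference of -4.02. PHO84, the high-affinity phosphate transporter, stood at -3.39 at 10 min and -0.09 at 0 min. Most of the other large falls were in genes of ribosome construction. RRN11, a subunit of the RNA polymerase I core factor, fell by 3.09, and SPB1, a methyltransferase of the large subunit's precursor, by 3.07. The differences were -2.81 for ALB1, -2.70 for FYV7, -2.48 for NOG2, -2.43 for RRS1, -2.38 for PUF6 and -2.37 for TSR1, all of them ribosome assembly or rRNA processing factors. TOD6, a repressor that binds in front of such genes, fell as well, by 2.47. The remaining ones were SFG1, a transcription factor, at -2.86, HSP30, a plasma membrane protein of the stress response, at -2.57, MCM10, a replication factor, at -2.42, and HMT1, the main arginine methyltransferase, at -2.36. HPT1, which salvages hypoxanthine and guanine, stood at -3.49 at 10 min and -0.07 at 0 min but likewise had 1 spot to compare. So had the ribosome assembly factors RRP9 at -2.58, REI1 at -2.53 and NOP15 at -2.43, which are therefore not among the 15 either. Among the 30 genes the spots of a probe differed by at most 0.53, that of ALB1.

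**Figure D2:**
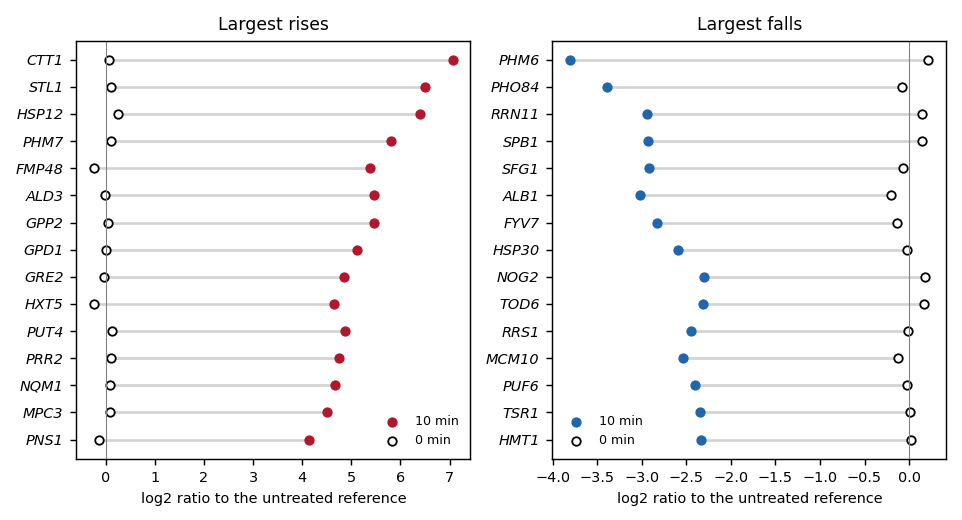
Log2 ratio to the untreated reference at 10 min (filled) and 0 min (open), 1 array per time, each point the mean of 2 spots. Shown are the 15 largest rises (left) and the 15 largest falls (right) among genes with a symbol whose 2 spots both passed 2-fold. The open points lie within 0.25 of 0 in every gene shown, and the filled points run up to 7.06 for CTT1 and down to -3.80 for PHM6.

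Of 17 sensors and kinases of the Hog1 pathway itself, 1 rose (5.88%) and 0 fell, with a median difference of 0.15; the share of rises is near the 6.83% of all probes. RCK1, a kinase related to the Hog1 substrate Rck2, stood at 2.14 at 10 min and 0.09 at 0 min, and RCK2 itself differed by 0.24. The next differences were 0.92 for SSK1, the response regulator of the Sln1 branch, -0.70 for SSK22 and -0.59 for SSK2, its kinases, and 0.68 for OPY2, an anchor of the Sho1 branch. HOG1 stood at 0.60 at 10 min and 0.15 at 0 min, and PBS2, the kinase that activates it, at -0.38 and -0.20. The osmosensors differed by -0.17 for SLN1, -0.36 for SHO1 and -0.22 for MSB2. YPD1, the phosphotransfer protein below Sln1, differed by 0.16. In the Sho1 branch the differences were -0.60 for STE20, 0.20 for STE11, 0.19 for STE50, 0.15 for CDC24 and -0.03 for CDC42. HKR1, the other mucin sensor, gave no value at 10 min.

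Of the 7 MAP kinase phosphatases, 2 rose (28.6%, beside 6.83% of all probes) and 0 fell. SDP1 stood at 1.72 at 10 min and 0.03 at 0 min, and PTP3, a tyrosine phosphatase that acts on Hog1, at 1.13 and -0.11. PTP2, the other tyrosine phosphatase of Hog1, differed by 0.78, within 2-fold.

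Among 23 transcription factors of the osmotic and general stress response, 8 rose (34.8%, beside 6.83% of all probes) and 1 fell. Falls made up 4.35%, beside 5.84% of all probes. CIN5, a basic leucine zipper factor of the Yap family, rose most, standing at 3.28 at 10 min and -0.13 at 0 min. The repressors NRG1 and NRG2 rose by 2.05 and 2.00, and RPN4, the activator of proteasome genes, by 1.85. USV1 rose by 1.67, GIS1, which binds STRE-like elements, by 1.06, and ROX1, the repressor of hypoxic genes, by 1.02. The remaining rise in this count was that of MSN4, by 1.08, which goes against the label of the strain. The factors through which Hog1 acts stayed within 2-fold, with differences of 0.76 for HOT1, 0.14 for SMP1 and -0.33 for SKO1. HAP4, the activator of respiratory genes, was the 1 that fell, to -2.23 at 10 min against 0.11 at 0 min.

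The list of genes taken as Hog1 targets through its partner factors Hot1, Sko1 and Smp1 had the highest median of the 37 lists, 4.15. The median of all probes was -0.00. The lists were chosen with earlier results of these data known, so this rank is a description. Whether Hog1 or these factors act on the members was not tested. Of the list's 16 members 12 rose (75%) and 1 fell (6.25%), beside 6.83% and 5.84% of all probes. Beside CTT1, RTC3, STL1, HSP12, FMP48, GPP2, GPD1, GRE2 and CIN5, given above, the rising members were GRE1 at 2.42, ENA1 at 2.38 and HOR7 at 2.08. The falling member was PHO84. AHP1, a peroxiredoxin, differed by 0.85, SFA1, an alcohol dehydrogenase, by 0.72 and GLR1, glutathione reductase, by 0.44, all within 2-fold. The list shares 3 members each with the lists of glycerol genes, of Msn2 and Msn4 genes and of oxidative defence below. It shares 2 with the aldehyde list, so these counts are not separate evidence.

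Of 16 glycerol genes compared, 7 rose (43.8%, beside 6.83% of all probes) and 0 fell, with a median of 0.49. On the way to glycerol, the genes of both enzymes, GPD1 and GPP2, rose, as did GPP1, the second phosphatase, which stood at 1.70 at 10 min and 0.08 at 0 min. GPD2, the second dehydrogenase, differed by -0.26. STL1, for uptake, rose, while FPS1, the export channel, differed by 0.28 and its regulators RGC1 and ASK10 by 0.27 and -0.66. On the side that breaks glycerol down, GUT2, the mitochondrial glycerol-3-phosphate dehydrogenase, rose by 1.36 and DAK1, dihydroxyacetone kinase, by 1.16, while GUT1, glycerol kinase, differed by 0.32 and DAK2 by -0.92. YPR1, an aldo-keto reductase, rose by 1.51, and its relative GCY1 differed by 0.66. The membrane proteins GUP1 and GUP2 differed by 0.26 and -0.12.

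The list of Msn2 and Msn4 genes had 37 of 51 members that rose (72.5%, beside 6.83% of all probes) and 0 that fell. Its median was 1.67. Msn4 is labelled as deleted and Msn2 as supplied from the plasmid in both arrays, so this count describes a strain with that label, in which the MSN4 probe rose by 1.08 and the MSN2 probe was not well above background. CTT1, HSP12, ALD3 and NQM1 led it, followed by TKL2, a transketolase, at 3.60, MSC1 at 3.46, and the Hsp70 chaperone gene SSA4, which stood at 3.19 at 10 min and -0.06 at 0 min. Members that did not pass 2-fold included GPH1, glycogen phosphorylase, at 0.28, XBP1, a repressor of cyclin genes, at 0.33, and SOD2, mitochondrial superoxide dismutase, at 0.46. The lowest member was GAC1, a phosphatase subunit of glycogen control, at -0.80. The Msn2 and Msn4 list shares 4 genes with the trehalose list, 6 with the glycogen list and 5 with the chaperone list. It also shares 3 with the aldehyde list and 2 each with the hexose and oxidative defence lists. The counts of these lists are thus not separate evidence.

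Genes for storage sugars rose in part. Rises made up 57.1% of the trehalose list and 42.9% of the glycogen list, beside 6.83% of all probes. In trehalose metabolism 4 of 7 genes rose and 0 fell, with a median of 1.11. TPS2, trehalose-6-phosphate phosphatase, stood at 3.04 at 10 min and 0.08 at 0 min. TSL1, a regulatory subunit, rose by 1.95, TPS1, the synthase, by 1.27, and ATH1, the acid trehalase that breaks the sugar down, by 1.11. The neutral trehalases NTH1 and NTH2 differed by 0.95 and 0.25, and TPS3, the other regulatory subunit, by 0.69. In glycogen metabolism 6 of 14 genes rose and 0 fell, among them GSY1, a glycogen synthase, at 1.73, PGM2, the major phosphoglucomutase, at 1.70, GIP2, a phosphatase subunit, at 1.38, and GLC3, the branching enzyme, at 1.18.

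Hexose transport and phosphorylation had 5 rises and 1 fall among 18 genes around a median of -0.13. Rises made up 27.8%, beside 6.83% of all probes, and falls 5.56%, near the 5.84% of all probes. Beside HXT5, the rising members were HXT1, the low-affinity transporter, at 3.18, and the kinases GLK1 at 2.47, EMI2 at 1.52 and HXK1 at 1.46. HXT8 was the 1 that fell, by 1.04. Of 20 glycolytic genes, 1 rose (5%, near the 6.83% of all probes). It was PFK27, which makes the activator fructose-2,6-bisphosphate, at 1.07.

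Of 14 enzymes that act on aldehydes and methylglyoxal, 5 rose (35.7%) and 1 fell (7.14%), beside 6.83% and 5.84% of all probes. ALD3 and GRE2 were followed by ALD4, the mitochondrial aldehyde dehydrogenase, at 3.03, GRE3, an aldose reductase, at 2.75, and ALD6, the cytosolic one, at 2.26, and ALD5 fell by 1.56. Oxidative defence had 4 rises (15.4%) and 0 falls among 26 genes. Its rising members after CTT1 were PRX1, the mitochondrial peroxiredoxin, at 1.61, GRX2, a glutaredoxin, at 1.26, and CTA1, the peroxisomal catalase, at 1.14. Of 23 chaperone genes 9 rose (39.1%) and 1 fell (4.35%). After SSA4 came the small heat shock proteins HSP26 at 2.84 and HSP42 at 2.39, and BTN2, a protein-sorting factor, at 1.79, and the 1 that fell was HSP30.

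Of 14 paralog pairs with both members compared, chosen with earlier results known, 12 had 1 member that rose and 2 had both. Related genes outside these pairs rose together in some cases, such as NRG1 with NRG2 and GLK1 with EMI2. CTT1 differed by 6.99 and CTA1 by 1.14, GPD1 by 5.11 and GPD2 by -0.26, and GPP2 by 5.41 and GPP1 by 1.62. In the pentose phosphate pathway the minor members rose, with 4.58 for NQM1 beside 0.28 for TAL1, 3.60 for TKL2 beside -0.06 for TKL1, 2.33 for SOL4 beside 0.19 for SOL3, and 1.16 for GND2 beside -0.05 for GND1. PGM2 differed by 1.70 and PGM1 by 0.31, and HXK1 by 1.46 and HXK2 by 0.45. ALD3 rose by 5.48 and its neighbour ALD2 differed by 0.40, although copies this alike can share signal on an array. Among glycogen synthases it was GSY1, at 1.73, that rose, and GSY2 differed by 0.35. SSA3 differed by 0.77 beside 3.26 for SSA4, and YAP6 by -0.45 beside 3.41 for CIN5.

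**Figure D3:**
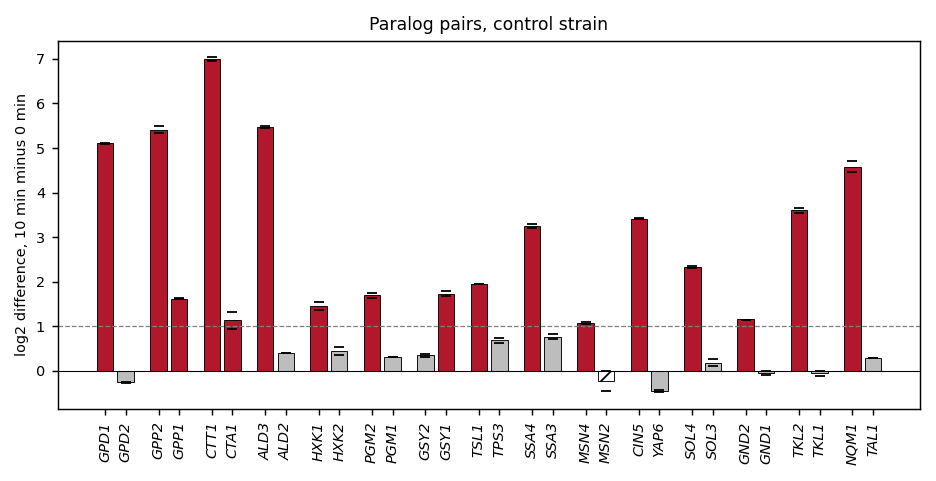
Log2 difference, 10 min minus 0 min, for both members of 15 paralog pairs, as bars from 0, red past 2-fold, grey within it, hatched where the probe was not compared (MSN2). Short lines are the single spots usable on both arrays. In every pair shown except CTT1 with CTA1 and GPP2 with GPP1, at most 1 member passed 2-fold.

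Of the sodium export genes, ENA1 and ENA2 rose. ENA2 stood at 3.15 at 10 min and 0.31 at 0 min and ENA1 at 2.20 and -0.18. They encode P-type sodium pumps that are near-identical copies of each other and of ENA5, so the array may not separate ENA1 from ENA2. The ENA5 probe differed by 0.05 and did not share their rise. NHA1, the sodium exporter that works by proton exchange, differed by -0.32. In the list of 20 cation transport genes ENA1 and ENA2 were 2 of 3 rises, with HAL1 the third. TRK1, the high-affinity potassium transporter, was the 1 fall, at -1.08. Calcium signalling had 3 rises and 0 falls among 15 genes: RCN2, a calcineurin regulator, at 1.69, PMC1, the vacuolar calcium pump, at 1.49, and GSC2, a glucan synthase subunit, at 1.35. In the list of 23 cell wall genes 4 rose and 0 fell, led by SPI1, a wall protein, at 2.87, CHS1, a chitin synthase, at 2.09, and CWP1, a wall mannoprotein, at 1.97. Of 26 pheromone response genes 3 rose and 1 fell. PRM1, used in membrane fusion of mating cells, stood at 2.29 at 10 min and -0.04 at 0 min, FUS1, also of cell fusion, at 1.60 and 0.08, and MFA1, a pheromone gene, at 0.98 and -0.07, while FAR1, which arrests cells in G1 when pheromone is present, fell by 2.08. Rises made up 15% of the cation list, 20% of the calcium list, 17.4% of the wall list and 11.5% of the pheromone list, beside 6.83% of all probes. Falls made up 5% of the cation list and 3.85% of the pheromone list, no more than the 5.84% of all probes.

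Genes that build ribosomes fell, and few genes of the ribosome itself passed 2-fold. Of 50 factors for the small subunit 40 fell (80%) and 0 rose, with a median of -1.38. Of 58 factors for the large subunit 42 fell (72.4%) and 0 rose, with a median of -1.46. Over all probes 5.84% fell. Every member of both lists had a negative difference, from -2.58 to -0.16 in the small-subunit list and from -3.07 to -0.32 in the large-subunit list. The small-subunit falls were led by RRP9 at -2.58, UTP14 at -2.35, UTP6 at -2.26 and UTP4 at -2.23, parts of the complex that processes the first rRNA transcript. RRP9 had 1 spot usable on both arrays. UTP6 had no spot usable on both, so its value sets different spots against each other. In the large-subunit list REI1, a late cytoplasmic factor, fell by 2.53, after SPB1 and ALB1. RNA polymerases I and III, which make the rRNAs and tRNAs, had 12 falls and 0 rises among 34 genes. These falls made up 35.3%, beside 5.84% of all probes, and the median was -0.66. After RRN11 came RPC19, a subunit of both enzymes, at -1.99, RPC31 at -1.68 and RPC25 at -1.58.

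Of 135 cytosolic ribosomal protein genes 4 fell (2.96%, beside 5.84% of all probes) and 0 rose, with a median of -0.19, and of 54 mitochondrial ones 0 fell and 0 rose, with a median of -0.27. The cytosolic ones that fell furthest were RPL22B, which stood at -1.99 at 10 min and -0.06 at 0 min, RPS9A at -1.94 and -0.24, and RPS27A at -1.33 and -0.06. Most cytosolic ribosomal proteins have a near-identical copy, so probes for them are uncertain. Translation factors had 1 fall among 38 genes (2.63%, beside 5.84% of all probes), NIP1, a subunit of initiation factor eIF3, at -1.09. None of 18 tRNA synthetase genes passed 2-fold in either direction.

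**Figure D4:**
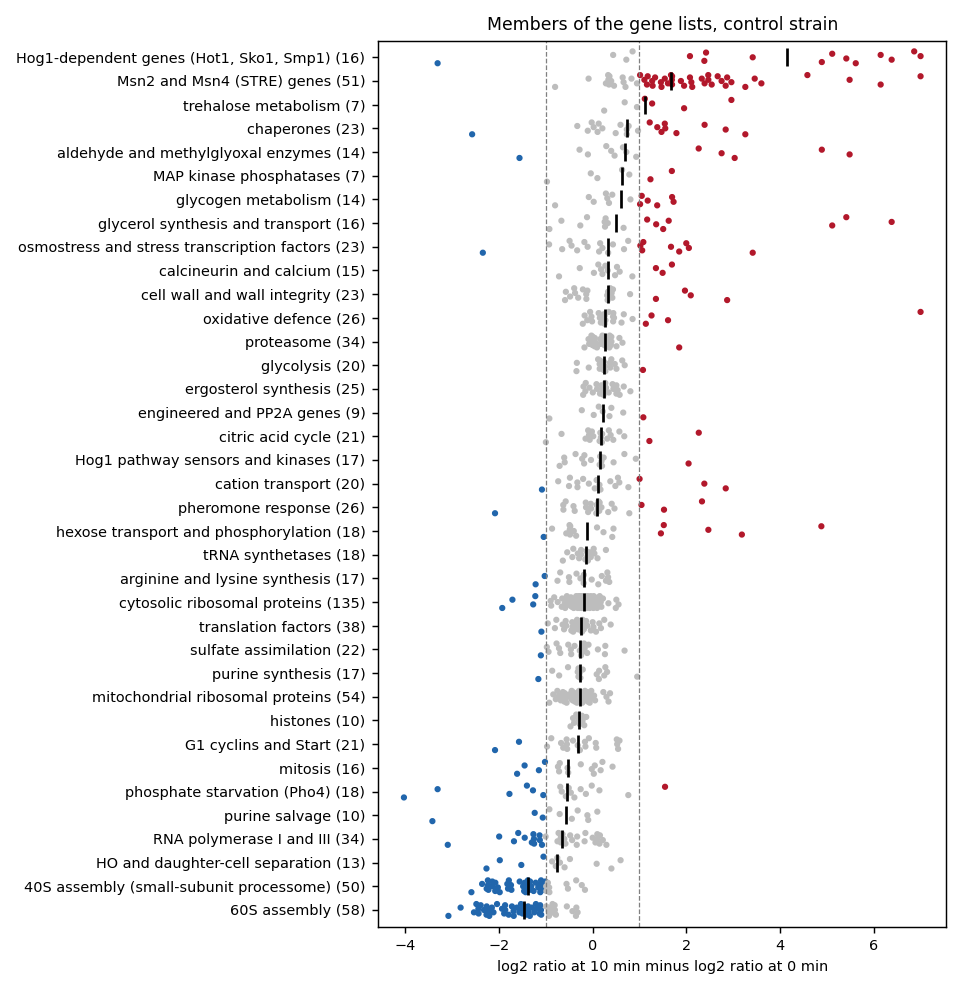
Log2 difference, 10 min minus 0 min, of each compared member (points) of the 37 gene lists, with the list median as a black bar, ordered by median; the number of compared members is in brackets, red points are past 2-fold higher and blue points past 2-fold lower. The Hog1-dependent list lies at the top with a median of 4.15 and the lists for building the 2 ribosomal subunits at the bottom with -1.38 and -1.46.

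Phosphate and purine salvage genes included some of the deepest falls. In the phosphate starvation list, whose genes are activated by Pho4, 6 of 18 fell (33.3%) and 1 rose (5.56%). Over all probes 5.84% fell and 6.83% rose. PHM6 and PHO84 were followed by SPL2, an inhibitor of low-affinity uptake, at -1.77, and PHO81, the kinase inhibitor of the pathway, at -1.40. The other falling members were CTF19, a kinetochore protein, at -1.27 and VTC3, of polyphosphate synthesis, at -1.05. The 1 that rose was PHO89, the phosphate transporter that runs on sodium, at 1.47 at 10 min and -0.08 at 0 min. In purine salvage 3 of 10 genes fell (30%) and 0 rose. AAH1, adenine deaminase, at -1.23 and FCY2, a purine permease, at -1.06 came after HPT1. In purine synthesis 1 of 17 fell (5.88%, near the 5.84% of all probes), BAS1, its activator, at -1.16.

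Cell cycle genes changed at a few places. Falls made up 25% of the mitosis list and 30.8% of the list of HO and daughter-cell separation, beside 5.84% of all probes. Of 16 mitosis genes 4 fell and 0 rose: FKH2, a forkhead activator of the mitotic cluster, by 1.61, CLB2, the main mitotic cyclin, by 1.45, CDC20, an activator of the anaphase-promoting complex, by 1.14, and BUD4 by 1.01. Of 13 genes in the list of HO and daughter-cell separation 4 fell and 0 rose, among them HO by 2.26, DSE4, a glucanase of daughter cells, by 1.98, and SUN4 by 1.52. In the list of G1 cyclins and Start, 2 of 21 genes fell (9.52%, beside 5.84% of all probes), FAR1 and RNR1, the large subunit of ribonucleotide reductase, at -1.57. PCL1, a cyclin of this list, did not pass the filter for comparison and differed by 1.49. With empty spots left out PCL1 could be compared and differed by 1.52. None of the 10 histone genes passed 2-fold, and all had negative differences, from -0.47 to -0.13.

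Sulfate assimilation had 1 fall among 22 genes (4.55%, near the 5.84% of all probes), MET6, methionine synthase, at -1.10. None of 25 ergosterol genes passed 2-fold, with a median of 0.25. In the citric acid cycle list 2 of 21 genes rose (9.52%, beside 6.83% of all probes). These were MDH2, cytosolic malate dehydrogenase, at 2.26 and CIT2, peroxisomal citrate synthase, at 1.21. Of 34 proteasome genes RPN4 alone passed 2-fold, a rise (2.94%, beside 6.83% of all probes).

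Some changes were larger at 10 min than at either later time, in ratios that share the Cy3 reference. This held for 179 of the 400 rising probes and 75 of the 342 falling ones. The 6 rises and 6 falls that stood furthest beyond both later times are given here. NRG1 had ratios of -0.02, 2.03, -0.51 and -2.06 at 0, 10, 20 and 30 min, and NRG2 of -0.06, 1.94, -0.25 and -1.44. For both, the ratio was high on the 10 min array alone. ROX1 had ratios of 0.28, 1.30, -0.99 and -1.12, and BTN2 of -0.07, 1.72, -0.35 and -0.13. RSB1, a transporter of sphingoid bases, had 0.01, 1.98, 0.35 and -0.78. FIT1, a cell wall mannoprotein that retains siderophore iron, had 0.22, 4.43, 2.85 and 1.04. Among the falls, TPO2, a polyamine exporter, had ratios of 0.11, -1.36, -0.01 and 1.64, and RAD34, a DNA repair protein, had -0.10, -2.28, -1.24 and -1.26. CMR3, GAT2, MIT1 and TDA6, the rest of the 6 falls chosen, stood between -1.49 and -0.92 at 10 min and between -0.56 and 0.02 at 20 min. These 12 genes were chosen for this pattern, so their values are a description.

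**Figure D5:**
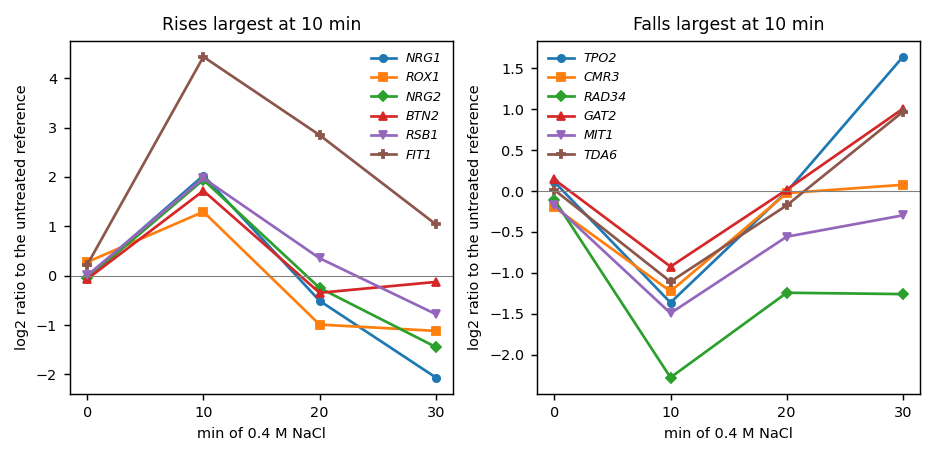
Log2 ratio to the untreated reference at 0, 10, 20 and 30 min for the 6 genes that were highest at 10 min (left) and the 6 that were lowest (right) relative to both later times, 1 array per time. NRG1 stands at 2.03 at 10 min and -2.06 at 30 min, and TPO2 at -1.36 at 10 min and 1.64 at 30 min.

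The gene lists differed in how the 10 min value stood beside the later ones, again against the same 0 min array. The Hog1-dependent list had medians of 4.15, 4.85 and 3.86 at 10, 20 and 30 min minus 0 min, and the Msn2 and Msn4 list had 1.67, 2.33 and 2.20. Trehalose genes had 1.11, 1.82 and 1.84. The factors for the small subunit had -1.38, -2.66 and -1.32, and those for the large subunit -1.46, -3.01 and -1.42, so both lists were lowest at 20 min. Cytosolic ribosomal proteins had -0.19, -0.54 and -0.45, with 4, 23 and 14 of their genes past 2-fold lower. Over all probes compared, 5.84%, 10.5% and 7.03% were lower and 6.83%, 10.1% and 7.31% were higher at these times.

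In the strain labelled cdc55, set against its own 0 min array, 7.03% of probes were higher and 7.38% lower at 10 min. The difference between strains has 1 array per cell of the design and was not tested. The Hog1-dependent list had a median of 3.47 in the strain labelled cdc55 and 4.15 in the control strain. For the Msn2 and Msn4 list the medians were 1.34 and 1.67. In the control strain the Hog1-dependent median falls in the gap between CIN5 at 3.41 and GRE2 at 4.89. The median ratios at 10 min, in the same order of strains, were 4.00 and 4.07 for the Hog1-dependent list. For the Msn2 and Msn4 list they were 1.37 and 1.72. STL1 differed by 7.30 in the strain labelled cdc55 and 6.38 in the control strain, and GPD1 by 5.50 and 5.11. GRE2 differed by 3.71 in the strain labelled cdc55 and 4.89 in the control strain; its ratio at 10 min was 5.22 in the strain labelled cdc55 and 4.85 in the control strain, and at 0 min 1.503 and -0.04. Small-subunit factors had a median of -1.86 in the strain labelled cdc55 and -1.38 in the control strain, and large-subunit factors -1.83 and -1.46. Their median ratios at 10 min lay closer together, at -1.33 in the strain labelled cdc55 and -1.40 in the control strain for the small subunit and at -1.39 and -1.46 for the large subunit, while at 0 min they were 0.50 and 0.01 for the small subunit and 0.45 and 0.02 for the large subunit. None of the genes compared in both strains passed 2-fold in opposite directions (count 0).

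For some genes only a limit can be given, because 1 array was not above background. In Cy5, 34 genes were above background at 10 min only, and the limit passed 2-fold for 3 of them. YNL194C, which encodes a membrane protein, was at least 31.2-fold higher at 10 min, YOR345C at least 3.98-fold and YBR032W at least 2.15-fold. These folds set the signal at 10 min against the lowest signal that counted as above background at 0 min, or the probe's own where that was higher. They use Cy5 signals alone, after normexp, loess and quantile normalisation between arrays. They are thus not on the scale of the ratios to the reference used above. At 0 min only, 6 genes were above background, with 0 past 2-fold; the furthest was PUL4, at least 1.87-fold lower at 10 min.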

How the data were processed

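RNA of 8 samples, 2 strains at 4 times, was hybridised on 2-colour Agilent arrays with 1 array per sample and no dye swap; 2 arrays enter the main comparison. In the deposited scanner output each spot has, per the file headers, an intensity per channel and a log10 ratio (Cy5 to Cy3) taken by the Agilent software after background subtraction and dye normalisation, with other columns of 0 or 1 flags for background, saturation and non-uniform spots. Agilent Feature Extraction 10.5.1.1 made 5 files, per the file headers; for 3, both arrays compared here included, no version could be read, and the 10 min file's ratios carry fewer digits. The deposited value table holds log2 values of Cy5 over Cy3, not centred further, and its row names did not match the probes. The exchange of files was decided after seeing this table.

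The log10 ratios were converted to log2, non-uniform spots were left out and the usable spots of a probe were averaged. Probes had to be well above background in both channels on both arrays. No spot was saturated. Median Cy5 intensity was 6632 at 10 min and 7219 at 0 min, over a background of 45 and 47. A gene with several probes is represented by its brightest one. Calls are past 2-fold, with no test because each group has 1 array, which limits the precision. Names come from the array, of which 5740 of 6228 matched the RefSeq gene table; that table's assembly differs from the array's build, so no coordinates are given.

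The genes and the 37 gene lists were chosen with earlier results of these data known; the result of 1 list is not reported here. Named genes are the 15 largest rises and falls with a symbol whose spots both passed 2-fold, the largest limits, up to 4 members of each list with every member of the Hog1 pathway, glycerol and trehalose lists, 15 paralog pairs, and 6 rises and 6 falls largest at 10 min; other members are named to complete a list's account. RPP1 and MRP8 are no ribosomal proteins and were left out of those lists. Promoter sequences were not used here. The calls were also run on simulated data with 200 changed probes. That run says nothing about biological error, and its outcome is not given here. Python 3.11.15, numpy 2.4.6, pandas 2.3.3, scipy 1.17.1 and matplotlib 3.10.9 were used, with R 4.3.3 and limma 3.58.1 for an alternative of normexp (offset 50) and loess. The limits used the same steps, followed by quantile normalisation of the average intensities between arrays.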

Additional observations from a re-analysis of the deposited data

How the results depend on the processing

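Under normexp with loess, median centring, non-uniform spots kept, both looser filters on dim probes, single spots, the 10 min ratio alone, the deposited value table and empty spots left out (added after seeing the data), rises numbered 371 to 438 and falls 305 to 358. Named genes past 2-fold kept their direction under all of these. Under normexp with loess 11 of 208 named genes lost their call, at 0.88 for GIS1, 0.95 for CTA1, 0.74 for MFA1, 0.96 for ROX1, 0.85 for HAL1, 0.91 for PTK2, -0.97 for CDC20, -0.89 for HXT8, -0.98 for CTF19, -0.90 for CMR3 and -0.997 for BUD4. Under single spots, centring, the 10 min ratio alone and the value table, 1 to 6 calls were lost. With the first spot alone the Hog1-dependent median was 3.42 and the glycerol median 0.78, from fewer genes. At 4-fold there were 97 rises and 57 falls, at 1.5-fold 867 and 841.

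With the scanner files as attached there were 41 rises and 106 falls, 0 lists with a median above 0.5 in place of 7 and 3 below -0.5 in place of 7, by the construction of that setting, which sets another sample's array against 0 min. Medians were 0.14 for Hog1-dependent, 0.033 for glycerol, 0.013 for Msn2 and Msn4, -0.062 for trehalose, 0.48 for small-subunit and 0.45 for large-subunit genes. Of the 208 named genes, 68 that passed 2-fold above had the opposite sign in that setting, and only these are listed next. A further 125 were counted as moved but not reversed, and 15 as the same. Among the reversed genes that rose above, differences in that setting were ALD4 at -0.33, CWP1 at -0.35, DAK1 at -1.71, EMI2 at -0.82, ENA1 at -0.098, ENA2 at -0.34, FIT1 at -0.23, FMP45 at -0.029 and GLC3 at -0.025. The next were GLK1 at -0.52, GND2 at -0.41, GPP1 at -0.37, GPP2 at -0.66, GSC2 at -0.38, GSY1 at -0.89, GUT2 at -0.042, HMX1 at -0.33 and HOR7 at -0.72. Others were HSP12 at -0.42, HXK1 at -2.42, IRC9 at -0.14, MPC3 at -0.0047, MSN4 at -0.12, NRG2 at -0.25, PHO89 at -1.95, PIL1 at -0.065 and PUT4 at -2.09. Further values were RCN2 at -0.093, RSB1 at -0.087, SPI1 at -0.010, SSA4 at -0.23, STL1 at -0.57, THI4 at -0.070, TKL2 at -0.49, TPS1 at -0.27 and TSL1 at -0.72. Among the reversed genes that fell above, the differences were AAH1 at 0.021, ALB1 at 0.50, BAS1 at 0.22, CMR3 at 0.17, FCY2 at 0.39, FYV7 at 0.38, HMT1 at 0.32, HPT1 at 1.10 and HSP30 at 0.52. Next to these came MCM10 at 0.42, NIP1 at 0.34, NOG2 at 0.16, PUF6 at 0.73, RAD34 at 0.058, REI1 at 0.52, RNR1 at 0.16, RPC19 at 0.33 and RPC25 at 0.43. Further positive values were RPC31 at 0.041, RPL22B at 0.14, RPS27A at 0.41, RRN11 at 0.37, RRP9 at 0.45, RRS1 at 0.51, SPB1 at 0.32, TOD6 at 1.10 and TPO2 at 0.66. The remaining ones were TRK1 at 0.15, TSR1 at 0.45, UTP14 at 0.49, UTP4 at 0.48 and UTP6 at 0.49.
No paired analysis was possible because each group has 1 array. Weak signal is not the only reason why 400 probes were not compared. Of these, 11 had no usable spot. With empty spots left out, 5907 probes could be compared in place of 5856. Among those gained, the differences ran from 2.69 for BOP2 to -1.05 for RAX2. Without replicate arrays no value has a biological error.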

Other observations

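Some genes outside the lists rose past 2-fold between these 2 arrays; they were chosen after their values were seen and are a description. In the catabolism of aromatic amino acids, ARO9, an aromatic aminotransferase, stood at 3.37 at 10 min and 0.04 at 0 min, and ARO10, the decarboxylase of the next step, at 2.54 and -0.26, while ARO8, the other aminotransferase, differed by 0.13. Genes of the eisosome and its membrane domain included rises of 3.21 for FMP45, 2.45 for PUN1, 2.15 for PIL1, 1.17 for NCE102 and 1.13 for LSP1, while SUR7 differed by -0.44. Among iron genes, FIT1 rose by 4.21, HMX1, heme oxygenase, by 2.70 and FRE4, a ferric reductase, by 2.67, while FIT2, FIT3 and ARN1, also of iron uptake, differed by -0.42, 0.49 and -0.44. THI4, of thiamine synthesis, stood at 3.77 at 10 min and -0.13 at 0 min, and NCE103, carbonic anhydrase, at 3.62 and 0.00.

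Overlapping or adjacent reading frames gave pairs of values that cannot be assigned to 1 transcript by these data. PRM10 and YJL107C, which overlap in the RefSeq table, rose by 3.57 and 4.03, and IRC9 and YAK1 by 1.45 and 1.34. IRC15 rose, standing at 2.90 at 10 min and -0.09 at 0 min, while CTF19, which it overlaps, fell by 1.27, standing at -1.24 and 0.03. Under normexp with loess they differed by 2.25 and -0.98.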
